A study of Mus musculus with 598 samples.

Results

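Dkk1, Sfrp1, Rspo3, Axin2, Nkd1, Rnf43, Znrf3, Lef1, Tcf7 and Sp5 are 10 genes that modulate WNT signalling or belong to its feedback loops, 10 of the 40912 genes in the deposited count table. They were taken by name and not by their values, and all 10 were found by identifier. RNA sequencing gave 1 library per cell for 598 single mouse cells sorted as positive for a green fluorescent reporter of Mesp1, a transcription factor of the earliest mesoderm. The labels give 3 groups, all carrying that reporter: wild type cells of E6.75 embryos, knockout cells of E6.75 embryos and wild type cells of E7.25 embryos, where E is the embryonic day. They name neither the targeted gene nor the strain, and no embryo, litter or pool. The extraction protocol in the labels describes adult bone marrow, which does not match the embryonic samples. The 5 bone marrow and blood markers together stood between 0.03 and 3.43 CPM in every group. CPM is a gene's share of all reads on genes, scaled to 1e+06 reads.

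WNT proteins bind a Frizzled receptor and an LRP co-receptor at the cell surface, which frees β-catenin from its destruction complex so that it can act with TCF and LEF factors in the nucleus. In the gastrulating embryo this signal is needed for the primitive streak and for the mesoderm that leaves it. The pathway limits itself: several of its targets encode its own inhibitors, and R-spondins, which slow the removal of receptors, raise the response.

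The cells fell into library sets 1 and 2, which the labels do not name and which were found in the data. Each cell of set 1 had reads of all of 8 genes (Foxe1, Dusp15, Kcnk12, Pou3f3, Six3, Vax1, Sox3, Hoxd13), and each cell of set 2 of at most 4. Of the cells of set 1, 85 were knockout, that is all of them, and 83 were E6.75 wild type. Set 2 held 89 E6.75 wild type cells. E7.25 cells made up the rest of both sets, 28.9% of all cells in set 1 and 28.1% in set 2. Median depth was between 689539 and 940161 reads on genes per cell in the groups of set 1, and 1799030 and 2264480 in those of set 2, over a range of 101895 to 14159574. A cell was called as having Y-linked reads when Eif2s3y, Uty and Kdm5d together exceeded 3 CPM. In set 1 this held for 53 E6.75 wild type, 49 knockout and 95 E7.25 cells, and in set 2 for 0 cells. Cells called without Y-linked reads may thus hold a few. The sets and the members are not independent: at E6.75, 8 of the 9 members above 5 CPM were higher in set 2, by a median log2 ratio of 0.67 against 0.09 for all genes, and at E7.25 by 0.47 against 0.10. Genotypes and stages were therefore compared within a set. Since the cells of a group may come from a single pool, each group was treated as 1 sample, with no test and no replicate check. Intervals in parentheses are exact 95% Poisson intervals for summed reads and exact Clopper-Pearson intervals for shares of cells, and both cover counting error only.

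Mesp1 served to check the labels. It stood at 405.8 CPM in wild type cells of set 1 at E6.75 and at 7.40 CPM (6.91 to 7.92) in knockout cells, a log2 ratio of -5.60. In wild type cells at E7.25 it stood at 531 CPM in both sets. The label of the knockout cells and their low Mesp1 thus go together, although the labels do not say which gene was targeted.

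Promoter sequences are shown for the members where the short core of the TCF and LEF binding motif, TCAAAG or, when read on the other strand, CTTTGA, lies in the 250 bases before a start site. RefSeq promoters on GRCm38.p6, the same assembly as mm10, were at hand for 12 start sites of 7 members. The core was found before 3 of these 12 RefSeq start sites, those of Dkk1, Sp5 and an internal start of Lef1, with 2 matches each. Among all 32851 promoters of the RefSeq set, 13.8% held at least 1 match and 1.37% at least 2. Each sequence below reads 5′ to 3′ on the gene's strand, with the core in capitals. The Sp5 window is chr2:70474673-70474922 on the plus strand and ends at the base before the start. The Lef1 window is chr3:131156044-131156293 on the plus strand, in an intron of the longer Lef1 transcripts. The Dkk1 stretches are chr19:30549653-30549682 and chr19:30549596-30549625 on the minus strand, with 30 bases shown around each match. In GENCODE M21, the annotation used here for gene coordinates, Dkk1 starts farther upstream, at 30549665. By that annotation the nearer match lies inside the gene and the farther match overlaps its first base.
Sp5: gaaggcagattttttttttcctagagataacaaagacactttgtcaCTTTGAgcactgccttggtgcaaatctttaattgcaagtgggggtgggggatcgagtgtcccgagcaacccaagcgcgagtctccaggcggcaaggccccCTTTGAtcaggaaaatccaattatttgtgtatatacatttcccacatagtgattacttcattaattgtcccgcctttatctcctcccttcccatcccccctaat
Lef1: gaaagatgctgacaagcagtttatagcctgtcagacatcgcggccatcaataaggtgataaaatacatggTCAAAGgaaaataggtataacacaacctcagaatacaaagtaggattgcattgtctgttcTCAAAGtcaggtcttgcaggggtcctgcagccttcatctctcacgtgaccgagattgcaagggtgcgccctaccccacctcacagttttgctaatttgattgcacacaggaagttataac
Dkk1, farther match: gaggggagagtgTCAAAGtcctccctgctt
Dkk1, nearer match: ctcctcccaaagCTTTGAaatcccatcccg

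The nearer of the 2 Sp5 matches is also the only one of the 6 that extends to ATCAAAG, which 3.21% of all promoters hold. None of the 12 start sites had the core in the last 100 bases, where 4.97% of promoters have it. For contrast, the 250 bases before the start of Axin2, a widely used readout of the pathway, hold no match (chr11:108920099-108920348, plus strand).
Axin2: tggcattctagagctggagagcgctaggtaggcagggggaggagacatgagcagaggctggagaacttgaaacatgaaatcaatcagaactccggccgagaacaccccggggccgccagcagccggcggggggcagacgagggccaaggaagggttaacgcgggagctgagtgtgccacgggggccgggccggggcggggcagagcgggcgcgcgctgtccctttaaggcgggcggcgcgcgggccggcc
A match describes these letters in these windows and nothing beyond them.

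Levels of different genes were compared per kilobase of exon. In wild type cells of set 1 at E6.75 Sp5 was highest at 47.8 CPM per kb, followed by Tcf7 at 22.02, Dkk1 at 15.7, Rspo3 at 12.5, Nkd1 at 9.06 and Lef1 at 8.75. Znrf3 stood at 4.49, Axin2 at 3.07, Sfrp1 at 0.99 and Rnf43 at 0.008 CPM per kb. In set 2 Dkk1 stood above Tcf7 already at E6.75, at 38.2 against 20.5 CPM per kb, with Lef1 at 13.1 and Sfrp1 at 3.35. At E7.25 in set 2 Sp5 stood at 81.2, Dkk1 at 31.3, Sfrp1 at 30.5 and Lef1 at 29.6 CPM per kb. Sfrp1 and Lef1 thus stood near the level of Dkk1, while Axin2 was at 2.45 and Rnf43 at 0.24 CPM per kb.

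**Figure D1:**
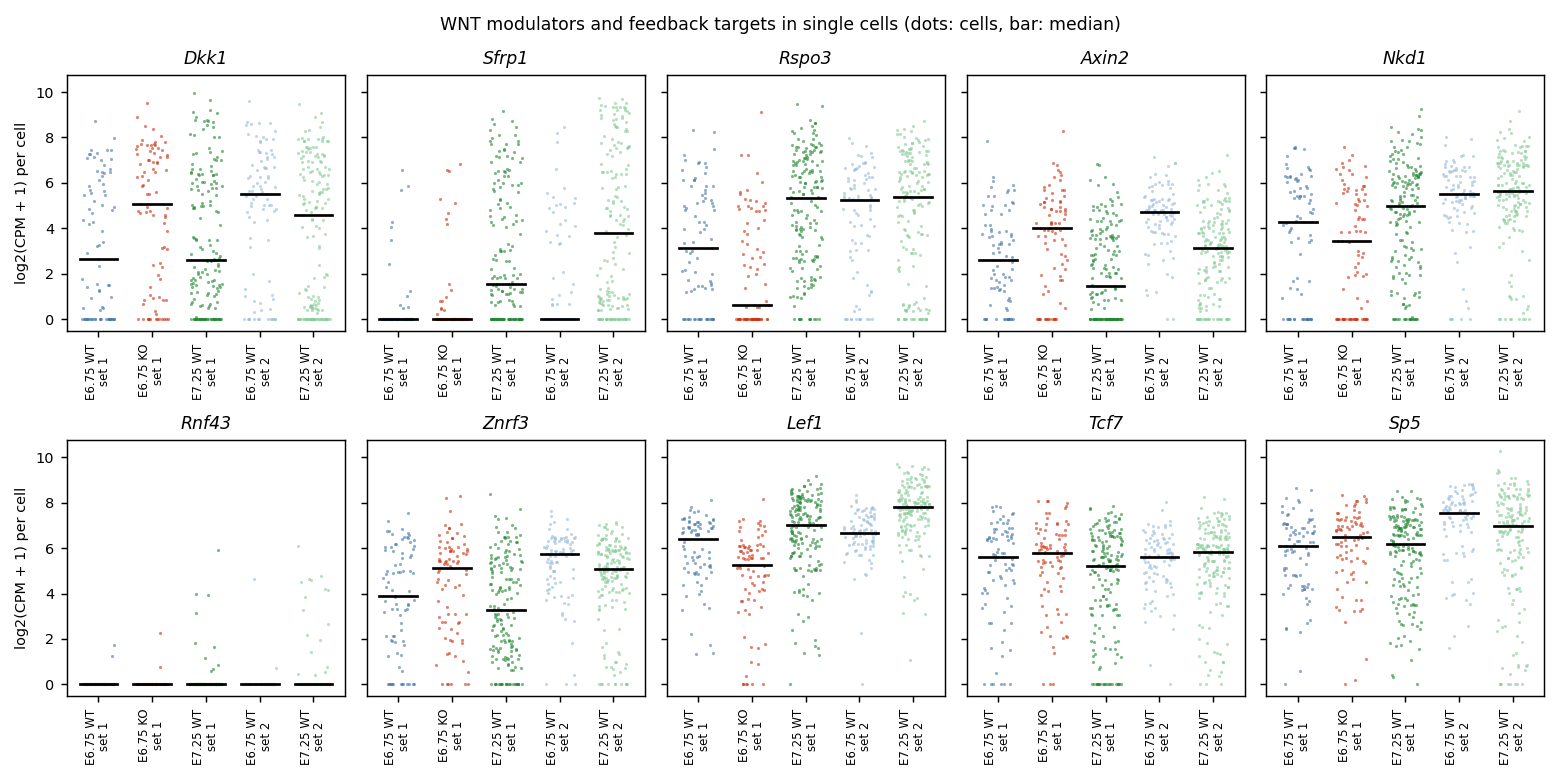
Level of each of the 10 genes in each cell, as log2(CPM + 1), by group and library set; dots are cells and bars are medians. Lef1 and Sp5 were read in nearly every cell, Rnf43 in few, and Dkk1, Sfrp1 and Rspo3 ranged from 0 to over 90 CPM within a group.

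Knockout cells were compared with the wild type cells of set 1 at E6.75. Dkk1, the secreted inhibitor that takes the LRP co-receptor away from WNT, was 2.03-fold higher in knockout cells. Rspo3, an R-spondin that raises WNT responses, was 3.55-fold lower in summed reads. Lef1, a nuclear partner of β-catenin, was 1.77-fold lower, and Tcf7 and Sp5 differed by less than 1.14-fold. Of the 9 members with at least 5 CPM in either group, 1 was at least 2-fold higher, against 3.20% of the 10588 genes tested, and 1 was at least 2-fold lower, against 5.78%. The members' median log2 ratio was 0.08 and that of all genes was -0.03, so the 10 genes did not shift together.

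Dkk1 (ENSMUSG00000024868, minus strand of chromosome 19, 30545863 to 30549665) stood at 38.1 CPM (36.8 to 39.3) in wild type cells and 78.3 CPM (76.6 to 79.9) in knockout cells. Wild type cells ranged from 0 to 421 CPM with a median of 5.25, and knockout cells from 0 to 729 with a median of 32.4. The groups overlapped over almost their whole range, and the knockout held more cells with high Dkk1. The mean of log2(CPM + 1) per cell was 3.12 ± 2.94 (SD over 83 cells) and 4.53 ± 3.02 (SD over 85 cells), a difference smaller than the spread between cells. With each cell thinned to 100000 reads, 48.2% of wild type cells (37.1 to 59.4%) and 64.7% of knockout cells (53.6 to 74.8%) had a Dkk1 read. Unthinned, the shares were 67.5% and 84.7%. The log2 ratio of 1.02 sat just past the 2-fold line. It was 1.04 as a mean over cells, 0.90 without the deepest 10% of cells and 1.21 without cells at 20 CPM or more of Cdh1, the epithelial cadherin.

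Rspo3 (ENSMUSG00000019880, minus strand of chromosome 10, 29452416 to 29535867) stood at 38.6 CPM (37.4 to 39.9) in wild type and 10.2 CPM (9.58 to 10.8) in knockout cells. Wild type cells ranged from 0 to 318.3 CPM with a median of 7.65, and knockout cells from 0 to 551 with a median of 0.55. Most knockout cells had little or no Rspo3, but the highest single cell was a knockout cell. The share of cells with a read after thinning was 53.01% (41.7 to 64.1%) in wild type and 35.3% (25.2 to 46.4%) in knockout, and 74.7% and 54.1% unthinned. The size of the difference rested on how cells were weighted: the log2 ratio was -1.83 in summed reads and -0.76 as a mean over cells, below the 2-fold line. Cells with Y-linked reads gave -3.09 and cells without them -0.76. The deepest wild type cell gave 21.1% of the wild type Rspo3 reads, and without the deepest cell of each group the log2 ratio was -1.51.

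Lef1 (ENSMUSG00000027985, plus strand of chromosome 3, 131110471 to 131224356) was at 76.9 CPM (75.2 to 78.7) in wild type and 42.97 CPM (41.8 to 44.2) in knockout cells. The lowest, median and highest cells were 1.53, 84.3 and 273.9 CPM in wild type and 0, 37.8 and 282.1 in knockout. The groups overlapped, and the median of the knockout lay close to the lower quartile of the wild type, 34 CPM. Every wild type cell had a Lef1 read, and 79 of 85 knockout cells did. The log2 ratio of -0.83 did not reach the 2-fold line and stayed negative in all settings tried. It was past 2-fold in cells without Y-linked reads (-1.05), and nearest to 0 over whole groups without the deepest 10% of cells (-0.56). With the wild type cells of both library sets it was -1.21. That value mixes the sets, as all knockout cells are of set 1 and Lef1 stood at 114.8 CPM in the E6.75 wild type cells of set 2. Tcf7 (ENSMUSG00000000782), the other member of this transcription factor family here, stood at 57.8 CPM in wild type and 61.1 CPM in knockout, with medians of 47.5 and 53.7 CPM.

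The intracellular and membrane feedback genes went in different directions. Axin2 (ENSMUSG00000000142), a scaffold of the β-catenin destruction complex and a target of the pathway, stood at 16.9 CPM in wild type and 27.7 CPM in knockout, with medians of 5.03 and 14.9 CPM per cell and maxima of 226.4 and 307.5. Its log2 ratio of 0.68 rose to 1.35 without the cells at 20 CPM or more of Cdh1. Nkd1 (ENSMUSG00000031661), a feedback inhibitor that binds Dishevelled, stood at 41.3 CPM in wild type and 27.5 CPM in knockout, with medians of 18.5 and 9.86 and maxima of 190.5 and 192.002. Znrf3 (ENSMUSG00000041961), a ubiquitin ligase that removes Frizzled receptors and is itself blocked by R-spondins, stood at 35.4 and 56.8 CPM, with medians of 13.9 and 34.3. A single knockout cell, the deepest, gave 34.03% of the knockout Znrf3 reads, and without the deepest cell of each group the log2 ratio fell from 0.67 to 0.09. Its paralog Rnf43 (ENSMUSG00000034177) had 5 reads in wild type and 2 in knockout cells, 0.05 and 0.02 CPM, too few for a ratio.

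Sfrp1 (ENSMUSG00000031548), a secreted protein that binds WNT ligands, was low at E6.75 in both genotypes. It stood at 4.31 CPM in wild type and 8.53 CPM in knockout cells, with a median of 0 in both and maxima of 92.5 and 113.4 CPM. One knockout cell gave 64.8% of the knockout reads, so the log2 ratio of 0.84 was 0.24 without the cell with the most reads in each group. Its direction changed with the cells used: it was 1.93 in cells with Y-linked reads, -1.14 in cells without them and -0.10 without cells at 20 CPM or more of Cdh1. Sp5 (ENSMUSG00000075304), a zinc finger factor and direct target that restrains other WNT targets, stood at 100.3 CPM in wild type and 88.4 CPM in knockout. Its cells ranged from 0 to 398 CPM with a median of 68.1 in wild type and from 0 to 320.4 with a median of 89.5 in knockout. The order of the 2 medians was opposite to that of the summed levels, and the log2 ratio was -0.18 in summed reads and 0.20 as a mean over cells.

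The knockout cells held a different mix of cells, and these values stand beside the ratios above. Cdh1 reached 20 CPM in 30 of the 85 knockout cells, which gave 48% of the knockout reads, and in 18 of the 83 wild type cells. The 8 epiblast markers summed to 1206 CPM in knockout and 755 in wild type, and the 7 primitive streak markers to 3074 and 2165. The 6 nascent mesoderm markers, Mesp1 among them, summed to 245.3 and 1656 CPM, and the 10 presomitic and paraxial markers to 46.1 and 196.3. The epiblast marker Utf1, at 158.03 CPM in knockout and 7.37 in wild type, rested on few cells, with a median of 0 in both. A single knockout cell gave 94.6% of the knockout Utf1 reads. To compare genotypes among more similar cells, set 1 was clustered without the WNT genes and without the 95 genes that separate the library sets, and 3 clusters held at least 10 cells of each genotype at E6.75. None of the 3 met the conditions for a cell type name. Cluster 1 (51 knockout and 18 wild type cells) had Mixl1 at 1613 and Cdh1 at 50.6 CPM. Its Utf1 level, 143.3 CPM, came mostly from the single knockout cell rich in Utf1. In cluster 1, 4 epiblast markers and 4 definitive endoderm and axial markers were raised. Cluster 4 (24 and 15 cells) had Mixl1 at 1125, T at 312.1 and Cdh1 at 10.1 CPM, and cluster 5 (10 and 17 cells) had Mixl1 at 1260 and Kdr at 101.3 CPM. Over all their cells, median depth was 1268520 reads on genes in cluster 1, 546123 in cluster 4 and 350060 in cluster 5. Whether depth shaped these clusters was not tested.

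Dkk1 was higher in the knockout cells of each of the 3 clusters. It stood at 70.6 CPM (68.96 to 72.4) in knockout against 38.7 (36.6 to 40.99) in wild type cells of cluster 1. In cluster 4 the values were 114.8 (109.7 to 120.1) against 28.1 (24.9 to 31.6), and in cluster 5 they were 107.3 (96.8 to 118.6) against 37.2 (33.1 to 41.6). The median cell of cluster 1 went the other way, at 23.1 CPM in knockout and 43.2 in wild type, while in clusters 4 and 5 it was 101.2 against 1.45 and 33.2 against 8.38. Ratios were wider overall within these small groups: 7.39%, 13.2% and 15.1% of all genes were at least 2-fold higher in the knockout cells of clusters 1, 4 and 5.

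Rspo3 did not keep its direction within the clusters. It stood at 8.13 CPM in knockout against 61.1 in wild type cells of cluster 1, where 1 wild type cell gave 40.3% of the wild type reads and the medians were 0 and 9.93 CPM. In cluster 4 it was 14.9 against 13.6 CPM, with counting intervals that overlap, and in cluster 5 it was higher in the knockout, at 41.01 against 22.2 CPM. Lef1 was lower in the knockout in all 3, at 39.9 against 57.7, 50.6 against 60.4 and 86.8 against 98.9 CPM, none of them 2-fold. In cluster 5 the counting intervals of Lef1 overlapped, and in cluster 1 its median cell was higher in the knockout, at 45.4 against 38.8 CPM. Axin2, higher in the knockout over all cells, was at 30.4 against 29.6, 10.3 against 12.95 and 37.4 against 28.7 CPM in clusters 1, 4 and 5, with overlapping intervals in each. Nkd1 was lower in all 3, at 27.3 against 43.02, 32.95 against 39.3 and 5.62 against 22.2 CPM. Its counting intervals overlapped in cluster 4, where the mean over knockout cells, 37.1 CPM, was above that over wild type cells, 35.98 CPM. In cluster 5 the knockout cells had 20 Nkd1 reads, 75% of them from 1 cell, and both medians were 0. Of all genes, 8.98%, 11.8% and 22.2% were at least 2-fold lower in the knockout cells of clusters 1, 4 and 5.

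**Figure D2:**
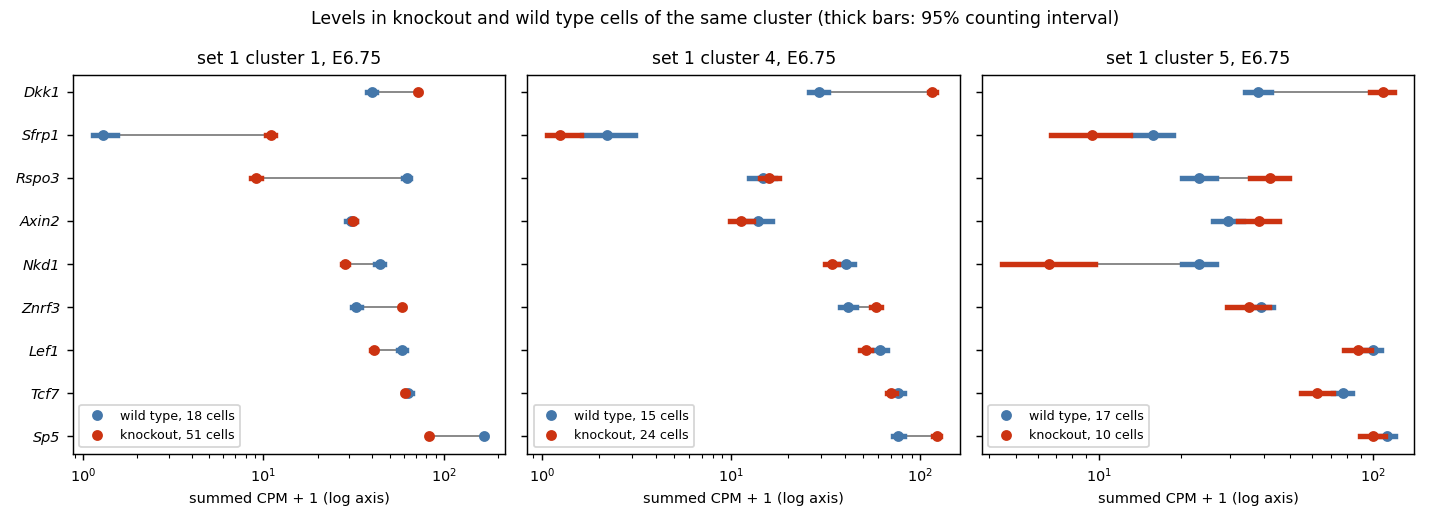
Summed CPM + 1 on a log axis of 9 members in knockout and wild type cells of the same cluster at E6.75 in library set 1; thick bars are 95% counting intervals. Dkk1 lies to the right in knockout cells of all 3 clusters, Lef1 and Nkd1 lie to the left, and Rspo3 lies far to the left in cluster 1 only.

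E7.25 was compared with E6.75 in wild type cells of each set. Sfrp1 was 10.4-fold higher at E7.25 in set 1 and 8.58-fold in set 2. Lef1 was 2.31-fold and 2.25-fold higher, and Axin2 was 2.08-fold and 2.22-fold lower. Rspo3 was 2.27-fold higher in set 1 and 1.30-fold in set 2, and Dkk1 was 1.88-fold higher in set 1 but 1.22-fold lower in set 2. In set 1, 3 of the 9 members above 5 CPM were at least 2-fold higher (6.30% of 10730 genes) and 1 was at least 2-fold lower (3.59%). In set 2, 2 were higher (4.94% of 10986 genes) and 1 was lower (2.18%). The median log2 ratio was 0.49 in set 1 and 0.27 in set 2, against 0.02 and 0.03 for all genes. The comparison in set 1 uses the same wild type cells at E6.75 as the comparison with the knockout.

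Sfrp1 lies on the plus strand of chromosome 8, from 23411502 to 23449632. Its E6.75 and E7.25 levels were 4.31 (3.90 to 4.75) and 54.2 CPM (53.2 to 55.3) in set 1, and in set 2 14.6 (14.1 to 15.2) and 133.2 CPM (132.01 to 134.4). The median cell was 0 at E6.75 in both sets, and 1.96 and 12.9 CPM at E7.25, where the highest cells reached 578 and 844. The ranges overlap because many E7.25 cells had none: after thinning, a read was found in 7.23% (2.70 to 15.1%) and 43.9% (36.4 to 51.7%) of cells of set 1 and in 24.7% (16.2 to 35%) and 55.95% (48.1 to 63.6%) of set 2. Unthinned, these shares were 14.5%, 65.3%, 37.1% and 81.5%. The log2 ratio in set 1, 3.38, was 4.48 among cells with Y-linked reads and 1.90 among the others. In set 2 it was 3.10, and 5.16 without the cells at 20 CPM or more of Cdh1.

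Lef1 was read in nearly every wild type cell at both stages, 99.4% to 100% of set 1 and 98.9% to 100% of set 2, so the stages differed in its level per cell. Its level in set 2 was 114.8 (113.1 to 116.4) for E6.75 and 259.97 CPM (258.3 to 261.6) for E7.25 cells. The lowest, median and highest cells were 0, 99.97 and 327.05 CPM at E6.75 and 1.11, 221.2 and 830 at E7.25, so the median at E7.25 lay above the upper quartile of 156.8 CPM at E6.75. In set 1 it stood at 76.9 and 178.8 CPM, with medians of 84.3 and 129.6. There the deepest E7.25 cell gave 19.02% of the Lef1 reads, and the log2 ratio of 1.21 was 0.93 without the deepest cell of each group, 0.87 as a mean over cells, 1.78 among cells with Y-linked reads and 0.33 among the others. In set 2 it was between 1.02 and 1.23 in all settings tried.

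Axin2 (plus strand of chromosome 11, 108920349 to 108950783) was lower at E7.25. In set 2 it stood at 31.2 CPM (30.3 to 32.1) and then 13.5 CPM (13.1 to 13.9), with medians of 25.02 and 7.89 and maxima of 138.2 and 150.8 CPM. After thinning, 84.3% of cells (75.02 to 91.1%) had a read at E6.75 and 52.4% (44.5 to 60.1%) at E7.25, and 97.8% and 86.9% had one unthinned. The mean of log2(CPM + 1) was 4.48 ± 1.42 (SD over cells) and 2.93 ± 1.84 (SD over cells), a difference close to the spread between cells. In set 1 it stood at 16.9 (16.1 to 17.8) and 7.61 CPM (7.22 to 8.02), with medians of 5.03 and 1.72. The deepest E6.75 cell gave 28.03% of the reads there, and the log2 ratio of -1.06 fell short of 2-fold without the deepest cell of each group, at -0.61. It was -0.16 among cells without Y-linked reads, and 6 of 14 settings within the set passed 2-fold.

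Rspo3 stood in set 1 at 38.6 and 88.9 CPM (87.6 to 90.3) in E6.75 and E7.25 cells, with medians of 7.65 and 38.9 and maxima of 318.3 and 705 CPM. In set 2 it stood at 53.5 (52.4 to 54.7) and 69.96 CPM (69.1 to 70.8), with medians of 37.1 and 40.7. The difference between stages in set 2, a log2 ratio of 0.38, was -0.08 without the cells at 20 CPM or more of Cdh1. Dkk1 stood in set 1 at 38.1 and 72.3 CPM, with medians of 5.25 and 5.04, so that its higher sum at E7.25 came with the upper cells, which reached 997.5 CPM against 421. In set 2 Dkk1 stood at 92.8 and 76.1 CPM with medians of 44.1 and 23.2.

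Nkd1 was 1.41-fold and 1.22-fold higher at E7.25, at 41.3 and 58.5 CPM in set 1 and 66.3 and 81.2 CPM in set 2, and was read in 89.6% and 94.6% of E7.25 cells. Tcf7 and Sp5 were less than 2-fold apart between stages in both sets. Tcf7 lay between 53.9 and 65.3 CPM in all 4 wild type groups, with medians between 36.5 and 55.1. Sp5 stood at 100.3 and 89.9 CPM in set 1 and 184.6 and 170.4 CPM in set 2, so its sums differed more between sets than between stages. Its median cell in set 2 was 186.8 CPM at E6.75 and 125.5 CPM at E7.25. Its E7.25 cells of set 2 were the most spread, from 0 to 1223 CPM, with an SD of 2.51 on the log2(CPM + 1) scale against 1.62 at E6.75. Znrf3 stood at 48.9 and 40.5 CPM in set 2 and at 35.4 and 47.9 CPM in set 1. In set 1, 1 E7.25 cell gave 53.2% of its reads, and the log2 ratio of 0.42 turned to -0.61 without the deepest cell of each group. Rnf43 was read in 5.78% and 10.1% of the E7.25 cells of sets 1 and 2, against 2.41% and 2.25% at E6.75, and stood at 0.95 and 1.60 CPM at E7.25.

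**Figure D3:**
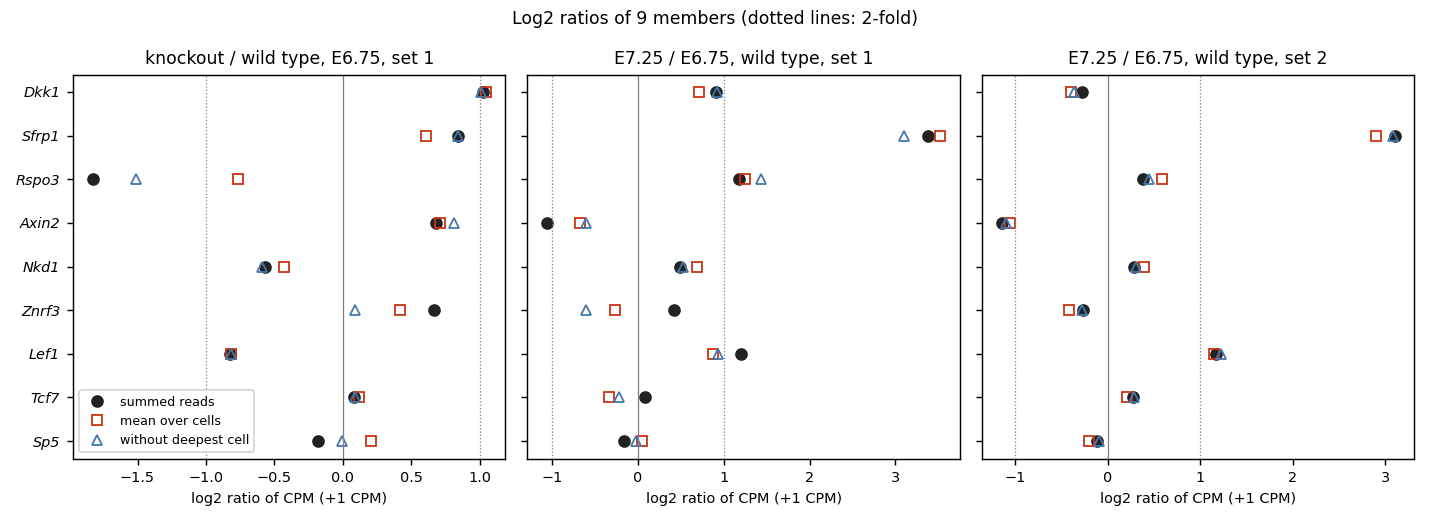
Log2 ratios of 9 members in the 3 comparisons, from summed reads (filled circles), from the mean over cells (open squares) and from summed reads without the deepest cell of each group (open triangles); dotted lines mark 2-fold. Sfrp1 is past 2-fold at E7.25 in both sets, Rspo3 loses its 2-fold difference in the knockout in the mean over cells, and Znrf3 changes side in the stage comparison of set 1.

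Cells of both stages were then placed in clusters to see where each member was read. Set 1 gave 8 clusters and set 2 gave 9, made without the WNT genes. In set 2, cluster 1 was presomitic and paraxial mesoderm-like, with T at 985 and Tbx6 at 344 CPM. In cluster 1, 3 epiblast markers were also raised, among them Cdh1, at 71.7 CPM against 32.8 in the rest of the set. Cluster 6 was presomitic and paraxial mesoderm-like with Foxc2 at 551 and T at 14.2 CPM. All 44 and 22 of their cells were from E7.25. Cluster 3 was definitive endoderm and axial-like, and cluster 9 was extraembryonic mesoderm-like, although 8 cardiac progenitor markers were also raised in it. The other clusters of set 2 were left unnamed.

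The 2 paraxial-like clusters had nearly the same Lef1 and differed in the modulators. Lef1 stood at 365 CPM (median cell 340.2) in cluster 1 and 366 CPM (270.8) in cluster 6, the highest of the 9 clusters. Sp5 stood at 313.3 CPM in cluster 1 and 21.5 CPM in cluster 6, Rspo3 at 140.4 and 8.95 CPM, and Nkd1 at 111.5 and 48.5 CPM. Sfrp1 went the other way, at 21.6 CPM in cluster 1 and 465 CPM in cluster 6, where all 22 cells had a read and the median cell had 479 CPM. Axin2 stood at 22.6 and 6.92 CPM. Cluster 7, unnamed, with Otx2 at 460 and Myl7 at 378 CPM, resembled cluster 6 in Sfrp1 (271.8 CPM), Rspo3 (10.2 CPM) and Axin2 (4.59 CPM). It had the lowest Dkk1, 3.23 CPM with a median of 0, but its Sp5 was 112.6 CPM.

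Dkk1 and Nkd1 were highest in cluster 8 of set 2, an unnamed cluster with Kdr at 410, Mesp1 at 975 and Hand1 at 241.6 CPM. Dkk1 stood there at 226.1 CPM (median 147.999) and Nkd1 at 192.5 CPM (median 123.2), while Sfrp1 was at 4.46 CPM. Clusters 7 and 8 thus had the lowest and the highest Dkk1 of the 9 clusters. With fewer variable genes the lowest and highest clusters had 3.19 and 204.7 CPM of Dkk1, but at resolution 0.5, which gave 5 clusters, they had 68.2 and 92.9 CPM. At that resolution Sfrp1 ran from 5.98 to 273.7 CPM, Sp5 from 38.4 to 324.4 CPM and Rspo3 from 38.2 to 144.3 CPM. In the E6.75 clusters 2 and 5, which had Mixl1 at 1704 and 2098 CPM, Axin2 was at 31.8 and 25.6, Sp5 at 167.6 and 191.4 and Sfrp1 at 5.98 and 1.68 CPM. Tcf7 lay between 43.6 and 79.02 CPM over the 9 clusters and Znrf3 between 29.8 and 58.2 CPM.

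In set 1 the highest Rspo3 was in cluster 7, an unnamed cluster of 28 E7.25 cells with Hand1 at 379, Bmp4 at 340.6 and Etv2 at 214.9 CPM. Rspo3 stood there at 230.2 CPM (median 142.6), next to the lowest Sp5 of the set, 23.6 CPM, and Axin2 at 5.54 CPM. The extraembryonic mesoderm-like cluster 9 of set 2 had a like pattern, with Rspo3 at 114.2, Sp5 at 51.9 and Axin2 at 7.70 CPM. Lef1 in set 1 stood at 233.1 CPM in cluster 3, nascent mesoderm-like, and at 210.5 CPM in cluster 2, presomitic and paraxial mesoderm-like, but the order of their median cells was opposite, at 118.7 and 205.4 CPM. Cluster 3 also had 4 raised presomitic and paraxial markers and cluster 2 had 4 raised cardiac progenitor markers. In cluster 3 a single cell gave 58.6% of the Lef1 reads and 88.4% of the Znrf3 reads, and the median cell had 3.56 CPM of Znrf3.

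**Figure D4:**
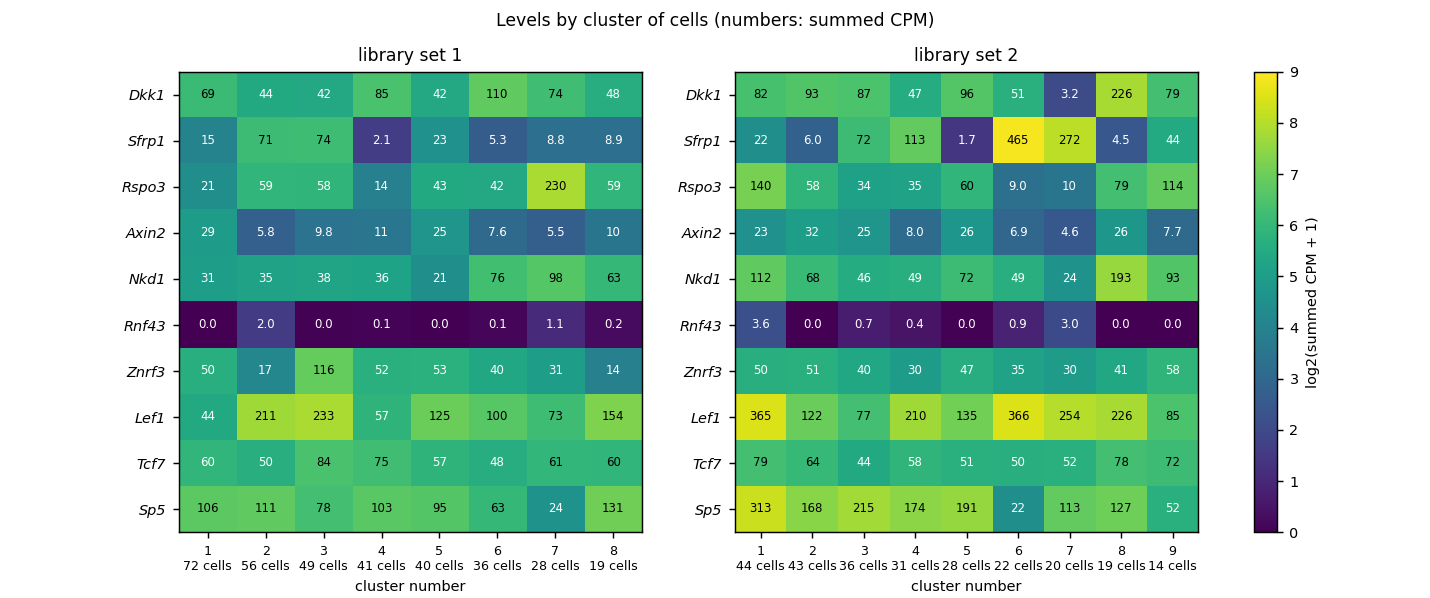
Summed CPM of the 10 genes in each cluster of library set 1 and set 2, coloured by log2(summed CPM + 1). In set 2, Sfrp1 is highest in clusters 6 and 7, where Rspo3 is lowest, and Dkk1 and Nkd1 are highest in cluster 8.

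Pairs of members were also compared over single cells. Spearman's rho over cells thinned to 100000 reads is given as a description, since cells of a group share a library set and possibly an embryo. In the E7.25 cells of set 2 Sfrp1 ran against Rspo3 (rho -0.54), Sp5 (-0.45), Nkd1 (-0.40), T (-0.56) and Mixl1 (-0.58). In the E7.25 cells of set 1 it ran against T (-0.40) and Mixl1 (-0.39), and less against Rspo3 (-0.20), Nkd1 (-0.30) and Sp5 (-0.14). In wild type cells at E6.75 Sfrp1 and Sp5 had a positive rho, 0.20 in set 1 and 0.34 in set 2, and Sfrp1 and Rspo3 had -0.17 and -0.10. These E6.75 values rest on few cells: after thinning, Sfrp1 was read in 6 of 83 cells of set 1 and 22 of 89 of set 2. Rspo3 and Sp5 went together in set 2 at E7.25 (0.47) but not in set 1 (-0.04), and both went with T in set 2 (0.59 and 0.63). Dkk1 went with Nkd1 at E7.25, at 0.42 in set 2 and 0.30 in set 1. Lef1 and Tcf7 had a rho of 0.04 in set 2 and 0.02 in set 1 there. Both were read after thinning in 84.5% and 70.5% of cells, where unrelated reads would give 84.1% and 68.9%. Lef1 alone was read after thinning in 98.8% and 93.1% of cells, so these shares could hardly differ and do not bear on a relation.

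**Figure D5:**
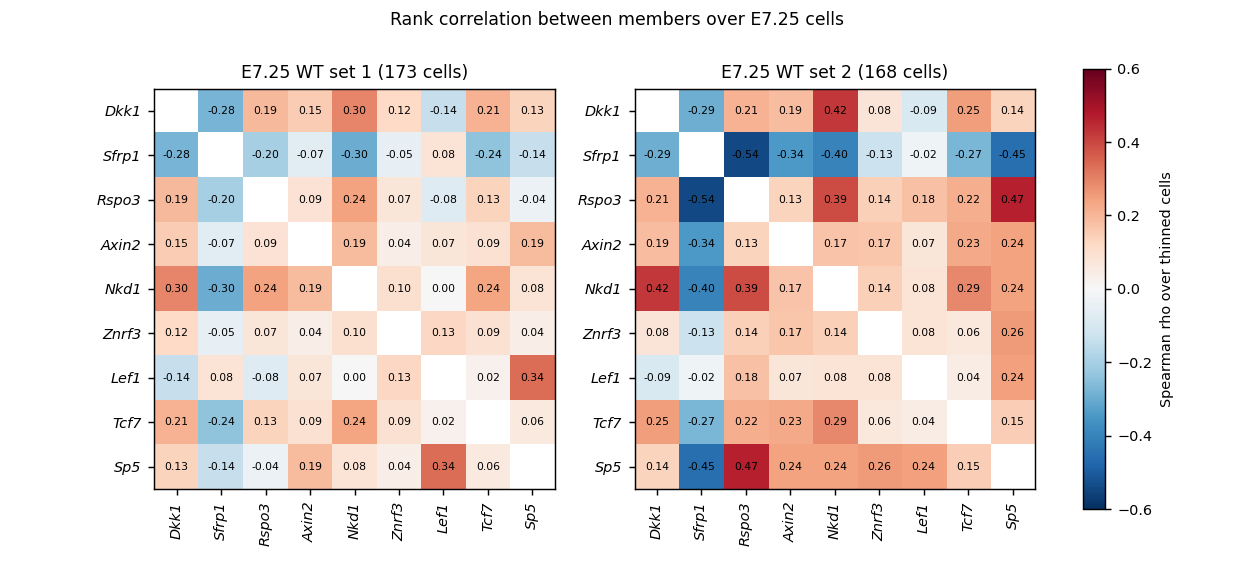
Spearman's rho between 9 members over E7.25 wild type cells thinned to 100000 reads, in library set 1 and set 2. In set 2, Sfrp1 has negative rho with Rspo3, Sp5 and Nkd1, and Rspo3 has positive rho with Sp5, Nkd1 and Dkk1.

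For each of 8 members, the genes most alike were found among 8575 genes by the mean rho over the 4 wild type groups, whose 99th percentile over all pairs was 0.15. Sfrp1 and Rnf43 were read in too few cells to be compared. Lef1 was most like Lefty2 (mean rho 0.41), a Nodal inhibitor, Dll3 (0.40), a Notch pathway gene of presomitic mesoderm, and Tbx6 (0.34). Sp5 was most like Pmaip1 (0.46), Frzb (0.44), a secreted WNT inhibitor, and Fst (0.43), an activin antagonist. In knockout cells Lefty2, Dll3 and Tbx6 had a rho of 0.02, 0.05 and 0.10 with Lef1. In the wild type cells of set 1 at E6.75 they had 0.31, 0.26 and 0.14. Pmaip1, Frzb and Fst had 0.26, 0.24 and 0.28 with Sp5 in knockout cells, and 0.36, 0.30 and 0.44 in those wild type cells. The genes were picked for high rho in wild type cells, so the genotypes are not compared on equal terms.

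Dkk1 was most like Mixl1 (0.33), Nkd1 (0.27) and Msx1 (0.25), and Rspo3 was most like Ndufaf4 (0.30), Ccnd2 (0.29) and T (0.28). In wild type cells of set 1 at E6.75, however, Dkk1 had 0.04 with Nkd1 and -0.03 with Msx1. Nkd1 was nearest to Vrtn, Crb2 and Evx1os (0.29 each). Axin2 had T (0.26), Bard1 (0.22) and Topbp1 (0.21), Tcf7 had Trim28 (0.23), T (0.22) and Sp8 (0.21), and Znrf3 had Gsk3b, Gm6166 and Rpa1, none above 0.19. These last values are weak in sparse counts. In E7.25 cells of set 2 Axin2 had 0.02 with Bard1 and 0.07 with Topbp1. Ranked by the lowest rho of the 4 groups, only 1 of the 3 genes stayed among the 10 nearest for Dkk1, Axin2, Tcf7 and Znrf3. For Nkd1 and Lef1 2 stayed, and for Rspo3 and Sp5 all 3. The most opposed genes, named after their values were seen, were Otx2 for Rspo3 (-0.36) and Wls (-0.42), the carrier that takes WNT proteins to the cell surface, and Hand1 (-0.41) for Sp5.

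The rest of the pathway was read from 7 lists of 97 genes. In knockout against wild type cells 3 of the 55 genes above 5 CPM were at least 2-fold higher and 5 were at least 2-fold lower, with a median log2 ratio of -0.07. Of all genes tested, 3.20% were at least 2-fold higher and 5.78% at least 2-fold lower. Among the 7 ligands tested, Wnt2 stood at 4.97 CPM in knockout and 41.8 in wild type and Wnt5a, a ligand of the β-catenin-independent branch, at 1.98 and 26.8 CPM, while Wnt3a, named after its value was seen, was higher at a log2 ratio of 1.25. Of 12 receptors 1 was higher, Ror2, a receptor for Wnt5a, at 19.4 against 8.37 CPM, and Fzd7 stood at 40.7 against 74.7 CPM. Of 4 further modulators 1 was higher, Tpbg, at 18.3 against 8.40 CPM, and Frzb stood at 175.4 against 298.9 CPM. None of the 10 genes of the cytoplasmic core, of the 9 nuclear partners or of the 2 secretion genes was past 2-fold. In these lists the largest ratios were Tnks at 14.97 against 23.99 CPM, Tcf7l2 at 21.3 against 38.02 CPM and Wls at 231.5 against 334.2 CPM. Of 11 streak and posterior genes known to depend on WNT 3 were lower: Mesp1 itself, Tbx6, at a log2 ratio of -2.30, and Cdx4, for which 91.7% of the wild type reads came from 1 cell.

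At E7.25 against E6.75, 13 of 57 listed genes were at least 2-fold higher and 7 lower in set 1, and 13 of 63 were higher and 6 lower in set 2, with medians of 0.19 and 0.21. Of all genes tested, 6.30% were higher and 3.59% lower in set 1, and 4.94% and 2.18% in set 2. Fgf8, a streak gene, stood at 157.7 CPM at E6.75 and 17.6 at E7.25 in set 1, and at 230.4 and 30.1 CPM in set 2. Tbx6 stood at 19.8 and 116.3 CPM in set 2. Of the ligands of set 2, Wnt5b stood at 83.6 and 24.3 CPM and Wnt11 at 14.4 and 2.04 CPM, and in set 1 Wnt8a stood at 14.8 and 4.15 CPM. Among the receptors 5 of 12 were higher in set 1 and 4 of 13 in set 2. Fzd3 in set 2 stood at 19.4 and 47.5 CPM, and Lgr5, an R-spondin receptor, at 0.23 and 11.5 CPM in set 1 and 1.09 and 6.52 CPM in set 2, with 47.95% and 44.7% of its E7.25 reads from 1 cell. Lgr4, another R-spondin receptor, stood at 39.2 and 10.2 CPM in set 1.

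Among the further modulators, Cer1 and Shisa2 were over 2-fold higher at E7.25 in both sets and Frzb was not. Frzb stood at 298.9 and 248.6 CPM in set 1 and 272.96 and 195.1 CPM in set 2. Cer1, which binds Nodal and BMP, stood at 15.5 and 128.6 CPM in set 1 and 14.8 and 163.5 CPM in set 2, although 1 cell gave 90.5% and 60.9% of its E6.75 reads. Shisa2, which holds receptors back inside the cell, stood at 3.04 and 13.9 CPM in set 1 and 4.12 and 18.8 CPM in set 2. In the cytoplasmic core Nkd2, the relative of Nkd1, stood at 3.03 and 12.3 CPM in set 1 and 8.20 and 13.5 CPM in set 2, and Ctnnb1, which encodes β-catenin, at 618 and 939 CPM in set 2. Of the nuclear partners Tcf7l1 stood at 17.8 and 42.1 CPM in set 1 and Tcf7l2 at 40.1 and 134.3 CPM in set 2. Wls and Porcn, the 2 secretion genes, differed by less than 2-fold in both sets.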

How the data were processed

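The deposited values are whole-number counts of reads on each gene, with no normalization, and 0 columns lacked a sample. The authors aligned reads with GSNAP 2015-09-29 and counted them with HTSeq 0.5.3p3 on mm10, per the submitters' processing notes. For the parameters, annotation release and strand setting, nothing is given in the sources used here. Duplicate reads were counted, and reads shared by overlapping genes cannot be told apart. Symbols and coordinates are from GENCODE M21 (GRCm38), which matched 40340 of 40912 identifiers.

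All 598 cells had at least 100000 reads on genes and 2000 genes. CPM is from reads added up over all cells of a group within a library set, so deep cells weigh most. Set 1 needed reads of at least 5 of 8 genes. Log2 ratios have 1 CPM added, so differences of low genes come out too small, and genes counted needed 5 CPM in the higher group. Shares of cells and rho used cells thinned at random to 100000 reads, and 0 cells were shallower. Clusters used 2000 variable genes, 20 components, 15 neighbours and resolution 1 (igraph 0.11.9), and were named where at least 3 markers of a list were 2-fold raised and that list had the most markers among the 10 leading genes, without a tie. No doublet caller was run. The steps were tested on simulated counts. edgeR 4.0.16 and DESeq2 1.42.0 gave scaling factors only.

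The members, lists and tests were chosen with earlier results of these data known. The rule for named genes takes the members, up to 2 genes per list and comparison with the largest log2 ratio, the 3 genes most like each member, cluster markers, Mesp1, Cdh1 and Utf1. Alternatives changed the scaling, the added CPM, the minimum, the fold and the cells used. The leaving out of the deepest cell of each group and the comparison within clusters were chosen after seeing the data.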

Additional observations from a re-analysis of the deposited data

How the results depend on the processing

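No paired analysis was possible because the replicate numbers in the labels only name cells and each result comes from no test. Of the counts, 84 of 120 alternative values stayed within 1.5 times and 36 moved. Of the log2 ratios of single members, shares of cells and spreads between clusters, 354 moved and 2 were labelled reversed. The others did neither, and were fewer than those that moved. A change of sign in a member short of 2-fold in the main setting was not labelled reversed. In the knockout comparison Sfrp1 ran from -1.14 to 1.93 and Sp5 from -0.72 to 0.70. In the stage comparison of set 1, Znrf3 and Tcf7 were each negative in 6 of 14 settings. A ratio or share moved when it left its counting interval, a spread when it changed by 0.5 or more, and every ratio within a cluster was counted as moved unless reversed. The knockout count of lower members, 1, was 0 as a mean of CPM over cells and with thinned cells, 2 at 1.5-fold and in cells without Y-linked reads, and 3 with both library sets. The setting with both library sets adds wild type cells of set 2, while all knockout cells are of set 1. The count of higher members, 1, was 0 with 10 CPM added, without the deepest 10% of cells and with both library sets, 2 without Cdh1-positive cells and in cells without Y-linked reads, and 4 at 1.5-fold. In the stage comparison the count of lower members, 1, was 0 in set 1 under 9 alternatives and in set 2 with 10 CPM added. The 9 were the mean over cells, 10 CPM added, thinned cells, a minimum of 20 CPM, cells without Y-linked reads, and leaving out the deepest 10%, the deepest cell, Cdh1-positive cells or the cell with the most reads. Among listed pathway genes, knockout higher and lower counts, 3 and 5, were 5 and 8 with no minimum, 0 and 3 at 20 CPM and 7 and 11 at 1.5-fold. Stage counts of 13 higher were 8 in both sets at 20 CPM, and 20 in set 1 and 21 in set 2 at 1.5-fold, where lower counts were 12 and 10. Of 24 genes named as most alike, 14 stayed among the 10 nearest by the lowest of 4 rho. Motif counts were 1 for ATCAAAG and 0 in the last 100 bases. Rspo3 in the knockout reversed within set 1 clusters 4 (0.12) and 5 (0.85). The cause was not tested. Rnf43 had at most 5 reads in each E6.75 group of set 1, too few for a ratio.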
